A study of Caenorhabditis elegans with 36 samples.

Results

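The mitochondrial ribosomal protein genes of Caenorhabditis elegans were taken as every gene whose symbol in the platform annotation starts with mrpl- (large subunit) or mrps- (small subunit). The array held 64 such genes among 16378 named genes, 36 of the large and 28 of the small subunit, and all 64 gene IDs carried the same symbol in RefSeq. RefSeq (WBcel235) lists 71 genes with such symbols, and 7 of them were not analysed here. Of the 64 genes, 59 had an immunoprecipitate (IP) and an input value in at least 2 lysates of every stage and were tested. The other 5, mrpl-2, mrpl-11, mrpl-30, mrps-18.C and mrps-31, are described at the end of the first comparison.

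The mitochondrial ribosome translates the few proteins encoded by mitochondrial DNA, which are subunits of the respiratory chain, while all of its own proteins are made in the cytosol from nuclear genes and imported. Many of its proteins have bacterial counterparts, and others are found only in mitochondria. In C. elegans, lowering mrps-5 during larval growth is known to extend lifespan and to switch on the mitochondrial unfolded protein response.

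The study asked which mRNAs were held with the microRNA-induced silencing complex (miRISC) as worms develop. All animals carried a single-copy integrated transgene for AIN-2::GFP, a tagged GW182-family protein of that complex, and were grown at 20 °C. Eggs were frozen directly, and L1, L2, L3 and L4 larvae were taken after 4, 21, 30 and 42 h on food. The 36 samples are the IP with an anti-GFP antibody and the input RNA of 18 whole-animal lysates. Egg, L1 and L3 have 4 lysates each, L2 and L4 have 3, and every one was cultured and harvested independently. An IP from untagged animals was not analysed here, so retention on the beads through AIN-2 cannot be told apart from retention by other means. In whole animals, fewer cells of a type and less RNA per cell cannot be told apart either.

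Levels are log2 values of quantile-normalized array intensities on an arbitrary scale. Differences are log2 IP minus log2 input of the same lysate, so that 1 unit is a 2-fold difference. Since the columns were normalized to each other, a negative value means a lower level in the IP relative to the other mRNAs of the sample. From 22 (L4 replicate 3) to 60 of the 64 genes were above background in an IP, and from 51 to 62 in an input, a spot being above background when it exceeded 3 times the noise of its column. Precision is limited by how many arrays each stage has. Stage markers moved with the labels in part. The summed input intensity of 12 major sperm protein genes was 59 to 420 at L4 against 0.851 to 20.3 in the other stages. The 20.3 came from L3 replicate 2, and the other L3 inputs gave 1.02 to 2.92. For 11 germ line genes the sum was 24.9 to 33.1 in Egg, 17.6 to 27 in L1 and 24.5 to 38.2 at L4. The sum of 5 embryonic specification genes did not separate Egg (2.06 to 2.64) from the larvae (1.74 to 4.3). Their median log2 input level did, at -1.125 to -0.562 in Egg and -3.147 to -1.445 in the larvae. Inputs of 4 lysates from 3 stages, Egg 4, L3 2, L3 3 and L4 1, deviated from their stages in a common way. Over 12393 features outside the mitochondrial ribosomal protein genes, these deviations correlated at r 0.275 to 0.488 in their 5 pairs from different stages. Pairs from different stages without these lysates gave -0.391 to 0.391, with a median of -0.001. Those values are no baseline, since L3 and L4 each have only a pair of other lysates, whose deviations mirror each other (r = -1). No label names a batch that joins the 4 lysates, and they were picked after the data were seen. Calls that they change are given without them and, with all lysates kept, with a term for them.

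Messages of the mitochondrial ribosome were mostly held less in the AIN-2 IP than in the input. Over the mean of the 5 stages, 50 of the 59 genes (84.7%) were lower in the IP and 0 were higher, where 25.2% of all genes and probes tested were lower and 19.2% were higher (limma, Benjamini-Hochberg adjusted p under 0.05). The median difference over the 59 was -1.41, 2.67-fold lower in the IP, against -0.09 over all genes and probes tested. With an offset of 0.1 added before log2, which lets all 64 genes be tested, the median was -0.78 and 51 genes were lower. Both subunits took part, with 28 of 33 large subunit genes lower (median -1.30) and 22 of 26 small subunit genes lower (median -1.47). A total of 42 genes were more than 2-fold lower. Without the 4 lysates that stand apart, 43 of 50 testable genes were lower and the median was -1.40, and with a term for them 44 of 59 were.

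**Figure D1:**
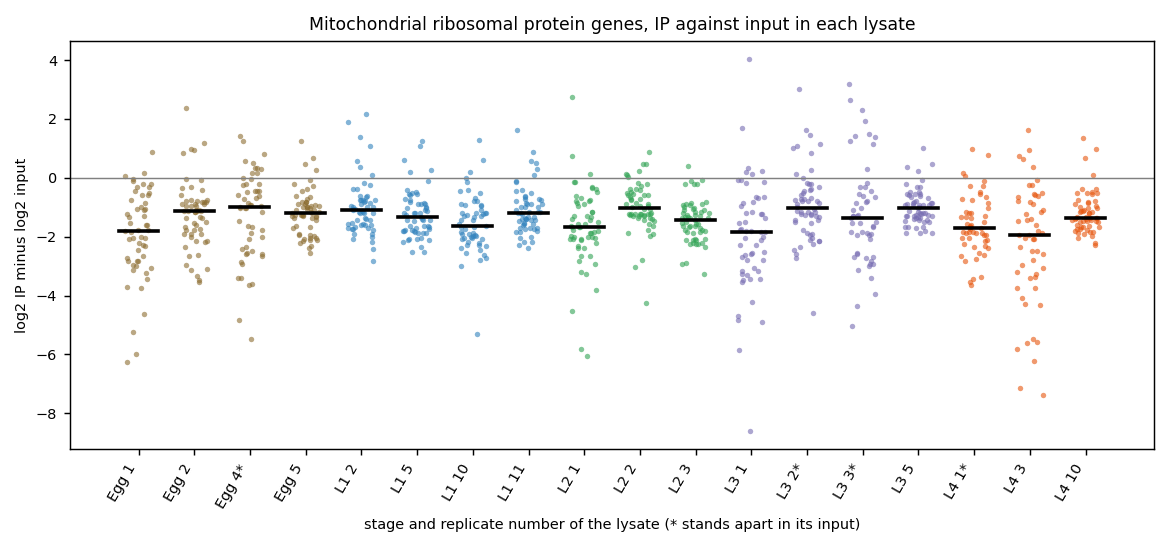
Log2 IP minus log2 input (vertical axis) of each tested mitochondrial ribosomal protein gene (points) in each of the 18 lysates (horizontal axis), coloured by stage, with the median over the genes as a black bar. An asterisk marks the 4 lysates whose inputs stand apart. All 18 medians lie below 0, between -1.96 (L4 replicate 3) and -0.98 (Egg replicate 4).

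The shift was present in every lysate. The median over the genes was -1.79, -1.14, -0.98 and -1.18 in Egg replicates 1, 2, 4 and 5, and -1.11, -1.35, -1.62 and -1.20 in L1 replicates 2, 5, 10 and 11. It was -1.67, -1.02 and -1.43 in L2 replicates 1, 2 and 3, and -1.83, -1.03, -1.36 and -1.03 in L3 replicates 1, 2, 3 and 5. In L4 replicates 1, 3 and 10 it was -1.69, -1.96 and -1.37. The stages overlapped throughout, and the spread over the 18 lysates was 0.316 (SD). The 2 lowest medians belonged to the 2 dimmest IPs, L4 replicate 3 and L3 replicate 1, where 33.5% and 31% of all spots were above background against 42.1% to 70.4% in the others. Without these 2 lysates the median over the mean of the stages was -1.35 and 46 of 54 testable genes were lower.

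Of the 35 genes with both values in all 18 lysates, 17 had the IP below the input in all 18, where 11.6% of all features did. A further 11 of the 24 genes with missing values had it below in each lysate with both.

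**Figure D2:**
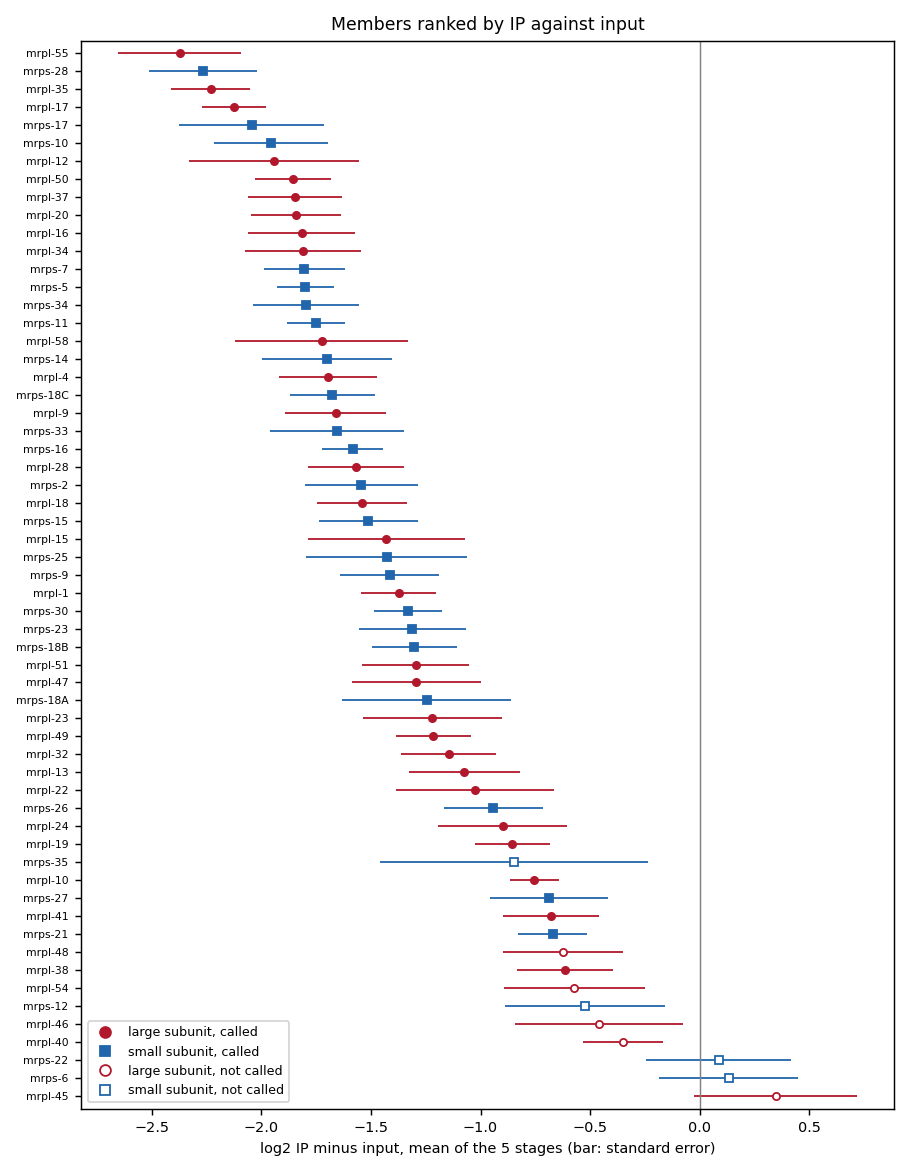
Log2 IP minus input at the mean of the 5 stages (horizontal axis) for the 59 tested genes, ordered from the lowest, with the standard error of the fit as bars. Circles are large and squares small subunit genes, and filled symbols passed the test. The values run from -2.37 (mrpl-55) to 0.35 (mrpl-45), and 56 of the 59 lie below 0.

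Among the large subunit genes, mrpl-55, mrpl-35 and mrpl-17 were lowest. mrpl-55 codes for a protein without a bacterial counterpart, while mrpl-35 and mrpl-17 are named after bacterial L35 and L17. The level of mrpl-55 lay between -6.26 and -2.11 (median -3.33, 17 lysates) in the IPs and between -1.96 and -0.67 (median -1.13) in the inputs, and the ranges did not overlap. Its difference was -2.37 ± 0.28 (standard error, adjusted p = 9.16e-07), below 0 in 17 of 17 lysates, with 13 IPs above background. mrpl-35 ran from -7.28 to -0.46 (median -2.75) in the IPs and from -4.71 to 0.52 (median -0.49) in the inputs. These ranges overlapped, but within each of the 18 lysates the IP was the lower, with values from -3.32 to -0.97, and the difference was -2.23 ± 0.178 (adjusted p = 2.39e-09). mrpl-17 lay between -7.28 and -1.87 (median -2.47, 17 lysates) in the IPs and between -4.63 and 0.05 (median -0.51) in the inputs. Its difference was -2.12 ± 0.145 (adjusted p = 4.75e-10) and below 0 in 17 of 17 lysates.

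Among the small subunit genes, mrps-28, mrps-17 and mrps-10 were lowest. The products of mrps-17 and mrps-10 are counterparts of bacterial S17, which binds the small subunit rRNA, and S10, which lies in the head of the subunit. mrps-28 ran from -7.01 to -0.80 (median -1.82) in the IPs and from -1.54 to 1.11 (median 0.25) in the inputs. The IP was lower in 18 of 18 lysates, and the difference was -2.26 ± 0.246 (adjusted p = 2.09e-07). mrps-17 lay between -9.50 and -3.05 (median -4.02, 16 lysates) in the IPs and between -4.51 and -1.55 (median -2.46) in the inputs, with 11 IPs above background. Its difference was -2.04 ± 0.33 (adjusted p = 5.25e-05, 16 of 16 lysates). mrps-10 ran from -9.47 to -0.56 (median -1.60) in the IPs and from -3.26 to 1.10 (median -0.06) in the inputs. The IP was again lower in 18 of 18 lysates, and the difference was -1.96 ± 0.261 (adjusted p = 3.23e-06).

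mrps-5, the gene of the lifespan work, was above background in all 18 IPs and inputs. Its IP levels lay between -1.85 and 0.05 (median -0.74) and its input levels between 0.28 and 1.47 (median 1.06), with no overlap. The difference was -1.80 ± 0.128 (3.48-fold lower, adjusted p = 4.5e-10), and it ran from -3.07 in L4 replicate 3 to -1.04 in L2 replicate 2. mrps-5 was also lower at each single stage, with estimates of -1.98 (Egg), -1.76 (L1), -1.35 (L2), -1.76 (L3) and -2.15 (L4).

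Among the called genes, mrps-27 passed narrowest (-0.69 ± 0.271, adjusted p = 0.0464) and lost its call when Egg replicate 1 or any of several other single lysates was left out (adjusted p from 0.0561 to 0.137). Without the 4 lysates that stand apart mrps-27 was lower by more (-0.98, adjusted p = 0.00449), while with a term for them it stood at -0.14 (adjusted p = 0.764). mrps-26 (-1.15 without them, adjusted p = 0.000819, and -0.59 with the term, adjusted p = 0.0701) and mrpl-41 (-0.95, adjusted p = 6.93e-05, and -0.32, adjusted p = 0.317) likewise lost the call with the term alone. mrpl-38 lost it both ways (-0.65, adjusted p = 0.0594, and -0.53, adjusted p = 0.135), and mrpl-24 without the lysates alone (-0.74, adjusted p = 0.0562, against -1.10 with the term, adjusted p = 0.0233).

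A total of 9 genes did not pass the test at the mean. mrpl-48 (-0.62, adjusted p = 0.0725), mrpl-40 (-0.35, 0.13), mrpl-54 (-0.57, 0.162), mrps-12 (-0.52, 0.266), mrps-35 (-0.85, 0.296) and mrpl-46 (-0.46, 0.362) had estimates below 0 in limma. mrps-12 is the counterpart of bacterial S12 of the decoding centre, and its value depended on how the 4 lysates that stand apart were treated. It was -1.14 (adjusted p = 0.00358) without them and 0.25 (adjusted p = 0.611) with a term for them, so its direction is not settled. mrpl-48 passed without them (-0.82, adjusted p = 0.0145) but not with the term (-0.45, adjusted p = 0.327), and it also passed without L3 replicate 3 (adjusted p = 0.0277) or L4 replicate 10 (adjusted p = 0.0308). mrpl-40 passed without L4 replicate 3 (-0.50, adjusted p = 0.00487), the lysate with the fewest genes above background in the IP. With a term for the lysates that stand apart it stood at -0.55 (adjusted p = 0.0478), and without them at -0.20 (adjusted p = 0.398). The estimates of the remaining 3 genes, mrps-22 (0.09, adjusted p = 0.859), mrps-6 (0.13, 0.772) and mrpl-45 (0.35, 0.489), were above 0.

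The lysates of these 3 genes varied in sign. mrps-6, the counterpart of bacterial S6, had the IP above the input in all 4 L1 lysates (1.91, 1.06, 1.30 and 1.62) and all 3 L2 lysates (0.74, 0.86 and 0.39). In Egg it stood at -2.09, -0.31, -0.43 and 0.48, in L3 at -0.66, -0.02, -1.30 and 0.45, and in L4 at -0.12, -5.47 and 1.34, the lowest from an IP not above background. The L1 estimate of 1.47 ± 0.629 did not pass the test (adjusted p = 0.105). Without the 2 dimmest IPs, L4 replicate 3 among them, the mean of mrps-6 was 0.45 and was called higher, at the edge of the threshold (adjusted p = 0.0499). mrps-22 had the IP above the input in 12 of 17 lysates, with L1 at 1.09, 0.62, 0.59 and 0.56 and the lowest value at -5.83 in L2 replicate 1, where its IP was not above background. mrpl-45, whose human counterpart helps to hold the ribosome at the inner membrane, was above 0 in 10 of 16 lysates, between -2.60 and 2.15, with only 11 of its IPs and 11 of its inputs above background. None of the 3 genes was called higher at any stage, and each had lysates on both sides of 0.

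Grouped by number, 33 of 35 tested genes in the range of the bacterial proteins (mrpl up to 36, mrps up to 21) were lower, with a median of -1.54. Of the genes numbered above that range, whose products mostly have no bacterial counterpart, 17 of 24 were lower, with a median of -1.25. The difference between these groups was not tested. Structures of the mammalian mitochondrial ribosome place the counterparts of mrps-30 and mrps-18A in the large subunit, so the split into subunits follows the names. mrps-2 and mrpl-4, which are neighbours in the genome, stood at -1.54 and -1.69.

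2 genes were read by more than 1 probe, and the probes gave the same direction. The median difference of the mrps-18B probes was -1.37 and -0.74 (17 of 17 lysates below 0 for each), and that of the mrpl-13 probes -1.35 (14 of 15) and -0.79 (18 of 18). Of the 5 untested genes, mrps-18.C was above background in 0 of 18 IPs and 0 of 18 inputs. mrpl-2 was above background in 4 IPs and 14 inputs, with the IP below the input in 11 of 13 lysates that gave both. mrpl-11, mrpl-30 and mrps-31 were above background in 2 to 4 IPs and 0 to 6 inputs, and no direction is given for them.

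The IP and the input were next compared within each stage. Lower calls numbered 28 of 59 in Egg (11.8% of all features lower, 10.4% higher), 33 in L1 (9.83% and 13%), 21 in L2 (10% and 6.27%), 27 in L3 (12.1% and 9%) and 30 in L4 (11.2% and 8.21%), and 0 genes were called higher at any stage. The medians were -1.38, -1.30, -1.31, -1.22 and -1.61, in the order of the stages. Outside this fit, mrpl-41 was called higher in Egg without the 4 lysates that stand apart and with a term for them. The genes lower at all 5 stages were mrpl-17, mrpl-20, mrpl-35, mrpl-37, mrpl-49, mrpl-50, mrps-5, mrps-11, mrps-16 and mrps-18C, 10 of 59 where 3.97% of all features were. A further 9 were lower at 4 stages, 10 at 3, 6 at 2, 11 at 1 and 13 at 0. Counts per stage were lower when some single lysates were left out. Such a fit has fewer arrays and can test fewer genes, and shares over all features are not given for it. Egg fell to 14 without replicate 2, L1 to 21 without replicate 5 or 10, and L2 to 8, 13 and 13 without replicates 1, 2 and 3. L3 fell to 17 without replicate 2, and L4 to 17 and 19 without replicates 3 and 10. Without the 4 lysates that stand apart, L3 fell to 13 of 50 testable genes, while with a term for these lysates L1 fell to 20 of 59.

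**Figure D3:**
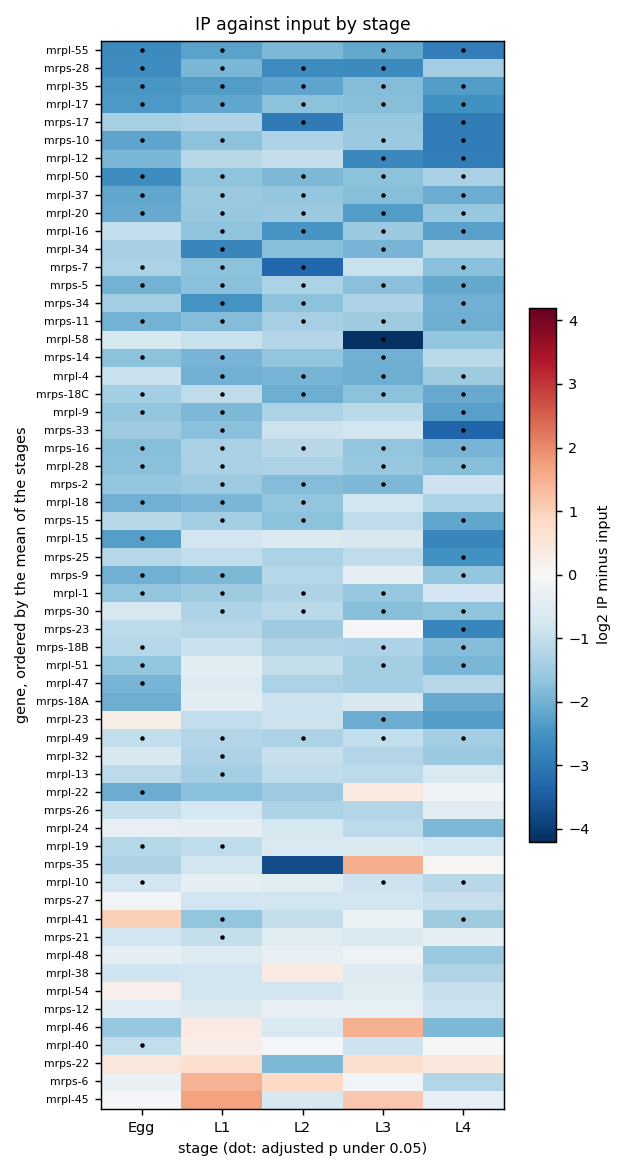
Estimated log2 IP minus input (colour) of the 59 tested genes (rows, ordered by the mean of the stages) at each stage (columns), with a dot where the adjusted p was under 0.05. Blue is lower in the IP. Dots number 28 in Egg, 33 in L1, 21 in L2, 27 in L3 and 30 in L4, and none lies on a red cell.

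The lowest estimate of each stage rested in part on IPs that were not above background, whose differences have no exact size. In Egg, mrpl-55 was lowest at -2.68, from -4.63, -2.16, -2.54 and -2.11 in replicates 1, 2, 4 and 5, of which replicate 1 was not above background in the IP. In L1, mrpl-34 was lowest at -2.73, where replicate 10 stood at -5.30 with an IP not above background and replicates 2, 5 and 11 at -1.92, -2.33 and -1.34. In L3, mrpl-58 was lowest at -4.14, from -8.58, -4.59, -1.63 and -1.80 in replicates 1, 2, 3 and 5, but the IP was above background in replicate 5 alone, so no fold is given. The human counterpart of mrpl-58 releases peptides from stalled mitochondrial ribosomes. In L4, mrps-33 was lowest at -3.37, from -1.34, -7.36 and -1.75 in replicates 1, 3 and 10, and replicate 3 was not above background in the IP. mrps-35 had the lowest estimate in L2 and the highest in L3, but its IP was above background in 0 of the L2 and L3 lysates, and it is given no fold either.

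The next comparison asked whether the IP to input ratio changed between stages. By the F test over the 5 stages it did so for 0 of 59 genes, against 2.61% of all features (limma, 4 genes at an unadjusted p under 0.05, and 0 or 1 called under the alternative settings). mrpl-41 came closest (adjusted p = 0.0803), followed by mrps-7 (0.129), mrps-23 (0.264) and mrpl-58 (0.279). When larvae were set against Egg, mrpl-41 was the 1 gene lower in larvae, and 0 were higher, where 2.57% and 2.64% of all features were. The other genes gave no call, and the median of this difference over the 59 was 0.06, against -0.03 over all features.

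mrpl-41 codes for a large subunit protein without a bacterial counterpart, whose human counterpart also binds the apoptosis regulator BCL2. The IP exceeded the input in all 4 Egg lysates, by 0.87, 0.97, 0.51 and 1.26 in replicates 1, 2, 4 and 5. In L1 the difference was -1.38, -2.17, -2.05 and -0.97 (replicates 2, 5, 10 and 11), and in L2 it was -1.43, -0.58 and -1.19. In L3 replicates 1, 2, 3 and 5 it was -1.76, 0.12, 1.44 and -1.31, and in L4 replicates 1, 3 and 10 it was -0.49, -2.34 and -1.89. The IPs of L4 replicates 1 and 3 and the input of L3 replicate 3 were not above background, so these differences have no exact size. Every larval lysate but L3 replicate 3 thus lay below every Egg lysate. The larval values above 0 were those of L3 replicates 2 and 3, both among the lysates that stand apart. The Egg estimate of 1.01 ± 0.448 did not itself pass the test (adjusted p = 0.117), while L1 (-1.64 ± 0.434, adjusted p = 0.00826) and L4 (-1.50 ± 0.507, adjusted p = 0.0432) did. Egg was called higher without the 4 lysates that stand apart (1.105, adjusted p = 0.0101) and with a term for them (1.335, adjusted p = 0.0229). L1 kept its call without them (-1.613, adjusted p = 0.000138) but lost it with the term (-1.014, adjusted p = 0.128). L4 kept its call both ways (adjusted p = 0.000725 and 0.0485). The larvae minus Egg difference was -2.11 ± 0.496 (adjusted p = 0.0139). It was -2.57 (adjusted p = 0.000252) without the 4 lysates that stand apart, and the F test then called mrpl-41 (adjusted p = 0.00346). Without Egg replicate 5 the larvae minus Egg difference was -1.96 and its adjusted p was 0.0576. The input of mrpl-41 did not differ between L1 and Egg beyond the error (1.09 ± 0.98, adjusted p = 0.478).

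mrps-7, the counterpart of a bacterial protein that starts assembly of the small subunit head, was lower in the IP in 18 of 18 lysates. Its L2 values (-3.19, -4.27 and -2.25) lay below those of every other lysate, which ran from -2.21 to -0.19. The lowest pair, L2 replicates 1 and 2, came from IPs not above background, and the F test did not call mrps-7. mrps-23 stood at 0.13, -0.79, 1.38 and -0.92 in L3 and at -3.54, -3.26 and -1.46 in L4, again without a call. The L4 values of replicates 1 and 3 came from IPs not above background.

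The total RNA of the inputs was compared between stages in a separate fit. It differed between stages for 6 of 59 genes by the F test, mrps-30, mrpl-32, mrpl-49, mrps-23, mrps-34 and mrpl-12, where 25.1% of all features did. The step that carried the calls was Egg to L1. Here 11 genes (18.6%) were higher in L1 and 0 were lower, against 11.2% and 11.5% of all features, and the median over the 59 was 0.95 against 0.01 over all features. Of the 57 genes with all 8 values, 22 had every L1 value above every Egg value, where 15.9% of all features did. Without the 4 lysates that stand apart, of which Egg 4 is 1, the median was 0.62 and 14 of 50 testable genes were higher. Without L1 replicate 5 or L1 replicate 10 the count was 6, and the share of all features called in those fits is not given here. From L1 to L2, L2 to L3 and L3 to L4 0 genes were called by limma (2, 5 and 0 at an unadjusted p under 0.05, and 0 under each alternative setting). Of all features 1.81% were higher and 0.21% lower from L1 to L2, 0% either way from L2 to L3, and 0.839% higher and 0.0381% lower from L3 to L4.

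**Figure D4:**
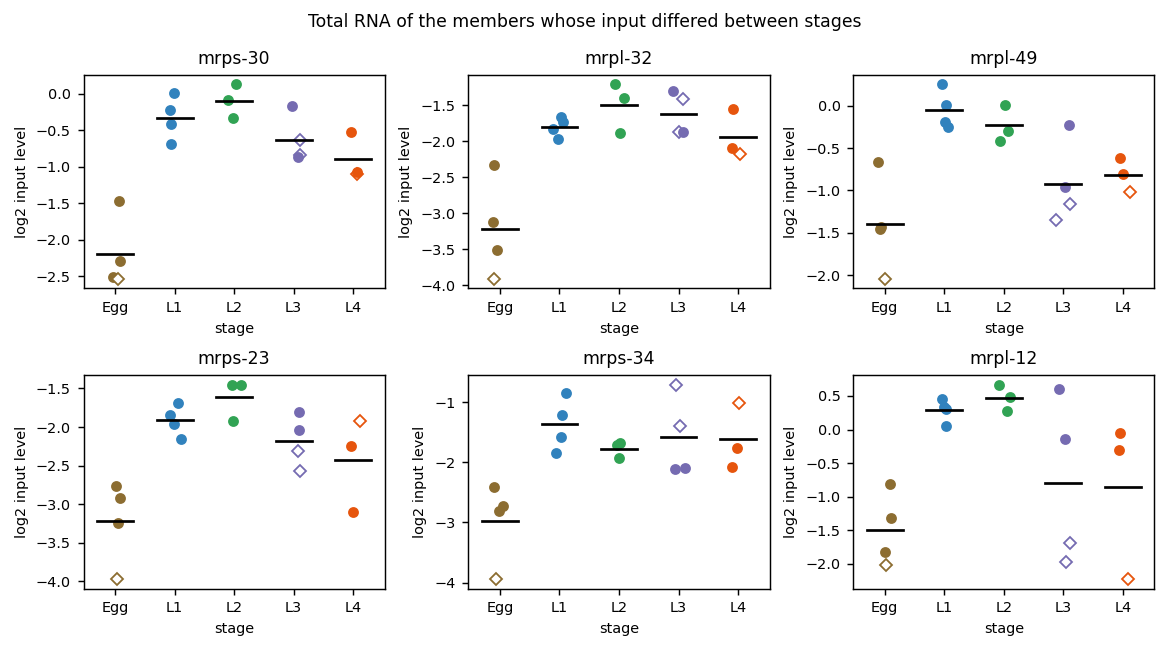
Log2 input level (vertical axis) by stage (horizontal axis) of the 6 genes whose total RNA differed between stages, 1 panel per gene, with 1 point per lysate and the stage mean as a bar. Open diamonds are the 4 lysates that stand apart. In all 6 panels every L1 point lies above every Egg point.

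mrps-30 changed most clearly. Its Egg inputs were -1.47, -2.50, -2.53 and -2.29, and its L1 inputs 0.01, -0.22, -0.42 and -0.68. L2 stood at -0.08, -0.33 and 0.13, L3 at -0.17, -0.64, -0.85 and -0.86, and L4 at -1.10, -0.53 and -1.07. All 14 larval inputs lay above all 4 Egg inputs. L1 was higher than Egg by 1.92 ± 0.313 (adjusted p = 0.000237), and by 1.78 without the 4 lysates that stand apart.

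mrpl-32, the counterpart of bacterial L32, and mrpl-49, which has no bacterial counterpart, rose at the same step. mrpl-32 was at -2.33, -3.13, -3.91 and -3.51 in Egg and at -1.73, -1.83, -1.97 and -1.66 in L1, a difference of 1.45 ± 0.368 (adjusted p = 0.00787). Its L2 values were -1.40, -1.88 and -1.21, its L3 values -1.31, -1.88, -1.42 and -1.87, and its L4 values -2.17, -1.55 and -2.09, so all larval inputs lay above all Egg inputs. mrpl-49 was at -0.66, -1.43, -2.04 and -1.46 in Egg and at 0.01, 0.25, -0.25 and -0.20 in L1, a difference of 1.40 ± 0.328 (adjusted p = 0.00469). Its later inputs, from -1.35 to 0.01, overlapped those of Egg. By the F test mrpl-49 was not called without Egg replicate 2 (adjusted p = 0.0551) or L1 replicate 5 (adjusted p = 0.0681).

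mrps-34, mrpl-12 and mrps-23 also rose from Egg to L1. mrps-34 kept this call in each fit without 1 lysate that tested it, but it could not be tested without the 4 lysates that stand apart. The F test over the 5 stages was lost without any 1 of 10 lysates for mrps-34 (adjusted p up to 0.109), of 11 for mrpl-12 (up to 0.101) and of 7 for mrps-23 (up to 0.0798). mrps-34 did so by 1.65 ± 0.426 (adjusted p = 0.00914), from -2.41, -2.82, -3.94 and -2.73 in Egg to -1.57, -0.85, -1.21 and -1.84. mrpl-12, whose bacterial counterpart is part of the stalk that recruits elongation factors, did so by 1.82 ± 0.542 (adjusted p = 0.021). It went from -0.81, -1.31, -2.02 and -1.83 in Egg to 0.45, 0.30, 0.34 and 0.06 in L1, and lost the call without Egg replicate 5 (adjusted p = 0.0524) or L1 replicate 10 (adjusted p = 0.0525). mrps-23 rose by 1.32 ± 0.379 (adjusted p = 0.0172), from -3.24, -2.76, -3.97 and -2.91 in Egg to -1.84, -1.69, -1.96 and -2.16 in L1, and was not called without L1 replicate 5 (adjusted p = 0.0619).

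The other genes higher in L1 were mrpl-19 (1.59), mrpl-4 (1.53), mrpl-16 (1.16), mrps-26 (0.95) and mrps-21 (0.88). The bacterial counterpart of mrpl-4 lines the exit tunnel, and that of mrpl-16 lies near the peptidyl transferase centre. Each of these 5 lost its call without L1 replicate 5 or L1 replicate 10. In all, mrps-21 lost it without any 1 of 6 lysates, mrpl-19 of 5, and mrpl-4 and mrps-26 of 3 each, with Egg lysates among them. At the lowest end, mrpl-45 (-1.87), mrps-35 (-1.28) and mrps-22 (-0.98) had estimates below 0 that did not pass the test. Some germ line and embryonic markers also differed at this step. In L1, 4 of 11 germ line genes were lower and 0 higher, while 1 of 5 embryonic genes was lower and 1 higher. The part of these markers in the results was not tested.

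In the lysates that stand apart some of the genes were low together in the input. Of the 57 genes with a value in all 4, 17 were more than 2-fold below the other lysates of their stages in each of the 4, where 5.18% of all features were. None of the 57 was more than 2-fold above in each, where 1.09% of all features were. mrpl-15 (mean deviation -4.60), mrpl-22 (-3.96) and mrps-25 (-3.86) had the lowest values. The input of mrpl-15 was above background in none of the 4 lysates. That of mrpl-22 was not above background in L3 2 and L3 3, nor that of mrps-25 in Egg 4 and L3 3. The deviations of these 3 genes thus have no exact size. At the mean of the stages these 3 stayed lower in the IP without the 4 lysates, at -1.48 (adjusted p = 0.00541), -1.50 (adjusted p = 0.00175) and -1.82 (adjusted p = 0.00011). With a term for the 4 lysates they stood at -1.43 (adjusted p = 0.1), -0.29 (adjusted p = 0.558) and -0.44 (adjusted p = 0.435) and were not called. mrpl-35 shows the pattern in its levels. Its inputs were -4.71, -3.31, -4.04 and -3.75 in Egg 4, L3 2, L3 3 and L4 1, and lay between -1.61 and 0.52 in the other 14. The IPs of mrpl-35 were low in the same 4 lysates, at -7.28, -5.23, -6.72 and -6.36, none above background, against -4.39 to -0.46 elsewhere, and its difference there (-2.57, -1.92, -2.69 and -2.62) lay within the range of the other lysates. Other genes did not move this way. mrps-10 was 0.57 to 2.32 above its stages in these inputs, and mrps-5 lay between -0.87 and 0.25 of them. Which property of these lysates goes with the shift was not tested.

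Other gene groups of the mitochondrion and of translation were set beside these genes. The 71 tested cytosolic ribosomal protein genes had 69 lower and 1 higher (rps-24, 0.24 ± 0.0925, adjusted p = 0.0396) and a median of -2.60, with rpl-37A, rplp-0 and rpl-38 lowest at -3.32, -3.25 and -3.21. The 63 tested oxidative phosphorylation genes had 58 lower and 0 higher and a median of -1.81, led by nduf-7 (-2.67). Of 18 genes of mitochondrial protein import, 17 were lower and 1 higher (median -1.37). ddp-1 (-2.01), tomm-40 (-1.89) and tomm-22 (-1.65), of which the latter pair code for parts of the outer membrane translocase, were lowest. The difference between these lists and the mitochondrial ribosomal protein genes was not tested.

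**Figure D5:**
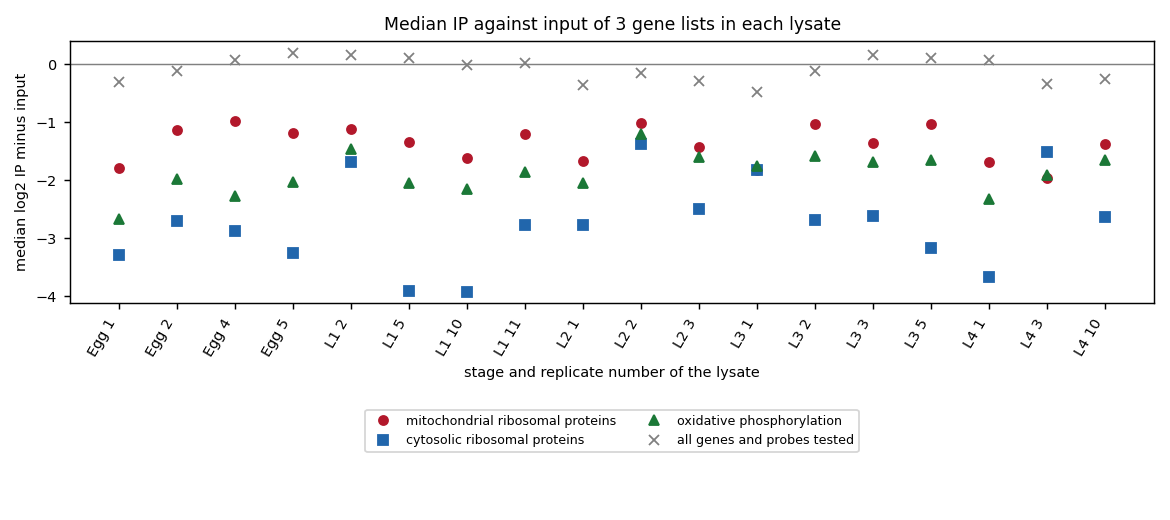
Median log2 IP minus input (vertical axis) in each lysate (horizontal axis) of the mitochondrial ribosomal protein genes, the cytosolic ribosomal protein genes, the oxidative phosphorylation genes and all genes and probes tested. The list medians lie below the median of all features in each of the 18 lysates, and over the fit they are -1.41, -2.60 and -1.81 against -0.09.

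Factors that work with the mitochondrial ribosome were also set beside it. Of 17 mitochondrial translation factors and tRNA synthetases, 9 were lower and 0 higher, with a median of -0.61. dap-3, whose human counterpart is itself a small subunit protein of the mitochondrial ribosome but whose symbol falls outside the rule, stood at -1.83 ± 0.256 (adjusted p = 6.13e-06). tufm-1, the mitochondrial elongation factor Tu, stood at -1.81 and the phenylalanyl-tRNA synthetase gene fars-2 at -1.38. Of 5 genes for mitochondrial DNA maintenance and transcription, 3 were lower (median -0.88), with mtss-1, a single-stranded DNA binding protein gene, lowest at -1.71. Mitochondrial protein quality control was split, with 5 of 10 lower and 4 higher. The prohibitin genes phb-2 (-1.92) and phb-1 (-1.69) and ubl-5 (-2.03) were lowest. dve-1 (2.13), which works with ubl-5 in the mitochondrial unfolded protein response, the peptide transporter gene haf-1 (1.04) and the inner membrane protease gene ymel-1 (0.73) were higher in the IP.

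The inputs of the same groups were compared at the step from Egg to L1, where 11.2% of all features were higher and 11.5% lower. Cytosolic ribosomal protein genes were higher in L1 for 59 of 71 (median 1.46) and import genes for 5 of 18 (median 0.93). Oxidative phosphorylation gave 6 of 63 higher and 1 lower (median 0.42), and translation factors and synthetases 2 of 17 higher and 0 lower (median 0.61). Quality control gave 1 of 10 higher and 0 lower (median 0.06). For oxidative phosphorylation, translation factors and synthetases, and quality control, the shares called higher were near the 11.2% of all features, and those called lower were below the 11.5%. Mitochondrial DNA maintenance and transcription gave 1 of 5 higher and 1 lower (median 0.97). The median over all features was 0.01. These lists share the Egg and L1 inputs with the mitochondrial ribosomal protein genes, so their shifts are set side by side only.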

How the data were processed

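The deposited values are intensity readings of 1 dye channel each, on a linear scale with background subtracted, as tested on the file, since values below 0 occur and each column averages 0.975 to 1.13. Scanner, image software and scaling are not given in the sources used here. Per the labels, RNA was amplified once and labelled, with the IP in Cy3 in 12 lysates and in Cy5 in 6.

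Spots at or below 0, which made up 5.75% to 20.3% of each column, were set to missing. The others were log2 transformed, columns were quantile normalized and probes of a gene averaged. A total of 15732 genes and probes had both values in at least 2 lysates of each stage. Stage and dye terms were fitted with limma 3.58.1 in R 4.3.3 to each lysate's difference of IP and input, with a variance trend on the mean level (12 residual and 7.46 prior degrees of freedom), so the lysate is the block, and to the 18 inputs with the same terms (5.61 prior). Calls have a Benjamini-Hochberg adjusted p under 0.05 over all genes and probes. Missing values drop a lysate from that gene's fit. The error after ± is the standard error of the fit.

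IP and input of a lysate deviated from their groups together (r from 0.269 to 0.625, over 0.1 in 18 of 18), and the labels say that both come from the same lysate. Scripts were tested on simulated data. Python 3.11.15 with matplotlib 3.10.9 drew the figures. Genes given lysate by lysate are the 6 lowest called at the mean, the 4 with the lowest p in each F test, the extremes of each stage and mrps-5, and further genes were singled out after their values were seen. Genes and lists were chosen with earlier results of these data known. Alternatives covered the scaling, an offset, filters, probes, dye, title spelling, blocks and left-out lysates.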

Additional observations from a re-analysis of the deposited data

Results flagged for a closer look

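Among 117 sets of 4 replicate values, taken from the genes described lysate by lysate and the medians over all genes, 7 held a value far from the other 3 by Dixon's test of the gap to the nearest value, a gap that chance gives in about 1 of 20 sets. In Egg replicate 1 the IP minus input of mrpl-55 was -4.63, from an IP not above background, against -2.54 to -2.11 in the other Egg lysates. In L3 replicate 1 that of mrps-10, whose IP was not above background there, was -3.27 (others -1.29 to -1.16). In L1 replicate 10 that of mrps-30 was -1.86 (others -1.20 to -1.09), and in L1 replicate 2 that of mrps-22 was 1.09 (others 0.56 to 0.62).

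The other 3 values were inputs of Egg replicate 4, a lysate that stands apart. mrpl-17 was at -4.63 (others -1.34 to -0.93) and mrpl-58 at -5.74, not above background (others -1.58 to -0.97), while mrps-10 was at 1.10 (others -0.90 to -0.74).

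The IP to input ratio of mrpl-41 differed between larvae and Egg, by -2.11 on the log2 scale (limma, adjusted p = 0.0139).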

How the results depend on the processing

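All 50 genes lower at the mean kept estimates below 0 under each of the 32 alternatives that tested them, and 39 kept their call in each. mrps-27, mrpl-38, mrpl-22, mrpl-24, mrpl-41 and mrps-18A lost it when some single lysates were left out. No call at the mean reversed. Estimates of some genes not called at the mean did change sign between the alternatives. They ran from -1.14 to 0.25 for mrps-12, from -0.27 to 0.45 for mrps-6 and from -0.12 to 0.38 for mrps-22. Scaling moved the median of all features at the mean from -0.09 to 0.14 with the values as deposited, where the median of the genes was -1.30. Dim IPs and the number of arrays limit what can be said of single stages.

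The count at the mean was 31 with complete genes only (35 tested) and 32 with the 12 lysates of one title spelling (47 tested), and 39 to 51 when 1 lysate was left out. The median was -0.78 with an offset of 0.1 before log2 and -1.45 to -1.36 when 1 lysate was left out. Counts per stage when 1 lysate was left out were 14 to 31 (Egg), 21 to 34 (L1), 8 to 26 (L2), 17 to 30 (L3) and 17 to 36 (L4). With one title spelling they were 14, 0, 6, 13 and 5. With complete genes only, L2 gave 13 and L3 17. The spelling as a term gave 12 in L2. Without the 4 lysates that stand apart L3 gave 13, and with a term for them L1 gave 20.

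Without the replicate block (no pairing of IP and input by lysate) the stage counts were 10 (Egg), 12 (L1), 5 (L2), 10 (L3) and 10 (L4), and larvae against Egg gave 0. Inputs of different stages with the same number did not deviate together (r from -0.231 to 0.419, over 0.1 in 6 of 19 pairs), so numbers were no block. With the number as a random block (correlation 0.106) the input gave 6 by the F test and 11 for L1 against Egg.

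The F test of the ratio gave 1 with loess, with the offset, without the 4 lysates, with a term for them, without the 2 dimmest IPs, and 0 to 1 when 1 lysate was left out. Larvae against Egg gave 2 with the offset, 0 with centred columns, 0 with one title spelling and 0 to 1 when 1 lysate was left out. The input F test gave 1 as deposited, 1 with one title spelling, 11 with a term for the 4 lysates, and 2 to 8 when 1 lysate was left out (3 without Egg replicate 4, Egg replicate 5 or L1 replicate 10, and 2 without L1 replicate 5). L1 against Egg in the input gave 4 as deposited, 5 with centred columns, 6 with spelling as a term, 0 with one title spelling, and 6 to 13 when 1 lysate was left out. The one spelling leaves fewer lysates (1 in L1), and otherwise the cause was not tested.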
